A study of Homo sapiens with 8 samples.

Results

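The metallothionein family and its metal sensor MTF1 were followed through 8 mRNA sequencing libraries of liver cancer cells. The 9 genes were MT2A, MT1E, MT1M, MT1A, MT1F, MT1G, MT1H, MT1X and MTF1, each matched by its Ensembl identifier to its gene symbol, out of 63241 identifiers in all. Both lines, HepG2 and Huh7, are established lines from human liver tumours. Each was compared as the parental sensitive line (WT) and as a line made resistant to the multikinase inhibitor sorafenib (SR) by growth under a rising drug concentration, with 2 libraries for each of the 4 combinations of line and status. The labels do not say whether the libraries of a group came from separate cultures or separately derived resistant lines, so p-values measure only the spread between these libraries, which may be technical. Values are FPKM, fragments scaled to transcript length and to the total of the library, so levels can be set side by side between genes.

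Metallothioneins are small cytosolic proteins rich in cysteine that bind zinc and copper, buffer free metal and take up reactive oxygen species. MTF1 is a zinc finger transcription factor that senses zinc and binds metal response elements in the promoters of metallothionein genes, and glucocorticoids and oxidative stress also raise these genes. The liver is a main site of metallothionein expression, and MT1G has been linked to the survival of hepatocellular carcinoma cells under sorafenib.

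The 8 metallothionein genes lie in a cluster at chr16:56608199-56684196 (GRCh38, GENCODE 29), which spans 76.0 kb, and MTF1 lies on chromosome 1. In GENCODE, 7 of the 8 are on the forward strand and MT1G (chr16:56666731-56668065) is on the reverse. The coding sequences are shown because the genes are near copies of one another, which bears on how reads could be assigned to them. Each of the 8 codes for 61 residues, of which 20 (32.8%) are cysteines. MT2A and MT1G are the most alike pair of the 28, with 95.2% identical bases over 186, and MT1F and MT1X are the least alike, with 88.7%. Codons for cysteine are in capitals.
MT2A: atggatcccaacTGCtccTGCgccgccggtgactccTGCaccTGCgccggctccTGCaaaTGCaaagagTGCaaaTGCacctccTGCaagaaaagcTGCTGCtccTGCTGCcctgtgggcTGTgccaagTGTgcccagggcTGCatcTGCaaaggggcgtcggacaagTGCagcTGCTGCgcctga
MT1G: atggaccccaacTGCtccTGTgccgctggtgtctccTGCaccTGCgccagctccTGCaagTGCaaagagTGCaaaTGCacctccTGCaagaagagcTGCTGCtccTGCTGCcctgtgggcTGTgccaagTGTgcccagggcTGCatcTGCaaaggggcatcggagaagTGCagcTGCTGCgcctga
MT1F: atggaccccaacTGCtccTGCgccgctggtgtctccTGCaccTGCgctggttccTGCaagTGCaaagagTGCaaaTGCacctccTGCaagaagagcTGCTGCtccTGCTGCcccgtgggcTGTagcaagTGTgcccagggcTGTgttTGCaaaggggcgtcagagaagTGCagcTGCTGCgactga
MT1X: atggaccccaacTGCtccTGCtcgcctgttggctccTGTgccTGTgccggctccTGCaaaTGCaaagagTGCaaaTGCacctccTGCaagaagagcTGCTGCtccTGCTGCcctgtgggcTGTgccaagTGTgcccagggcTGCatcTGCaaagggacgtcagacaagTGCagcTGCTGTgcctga
All 20 cysteine codons stand at the same position in each of the 8 genes. Of all stretches of 50 bases in a gene's GENCODE transcripts, between 1.22% (MT1F) and 18.3% (MT1X) also occur exactly in a transcript of another gene, with 3.02% for MT2A and 16.5% for MT1G. For stretches of 100 bases the share was 0 in MT2A, MT1G, MT1E, MT1F, MT1M and MT1A, against 1.39% in MT1H and 11.3% in MT1X. At that length MT1H shared only with MT1HL1, and MT1X only with AC026461.1, which is not among the genes studied here. At 50 bases AC026461.1 was also the gene with which MT1X shared most. How the authors treated reads that map to several genes is not given in the sources used here, so values of single metallothionein genes carry that uncertainty.

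Promoters of MT2A, MT1X, MT1H and MTF1 were taken from RefSeq (GRCh38.p14), from 250 bases before the annotated start to 50 bases after it, and those of MT1A, MT1E, MT1F, MT1G and MT1M were not analysed here. The first 3 are shown, from 2 genes listed above 0 in every library (MT2A, MT1X) and 1 listed at 0 in 3 libraries (MT1H). Capitals mark the core of the metal response element, TGCACNC or TGCGCNC, on either strand, with overlapping matches counted. MT2A (chr16:56608334-56608633, forward strand) and MT1H (chr16:56669564-56669863, forward strand) hold 8 matches each, and MT1X (chr16:56682220-56682519, forward strand) holds 4.
MT2A: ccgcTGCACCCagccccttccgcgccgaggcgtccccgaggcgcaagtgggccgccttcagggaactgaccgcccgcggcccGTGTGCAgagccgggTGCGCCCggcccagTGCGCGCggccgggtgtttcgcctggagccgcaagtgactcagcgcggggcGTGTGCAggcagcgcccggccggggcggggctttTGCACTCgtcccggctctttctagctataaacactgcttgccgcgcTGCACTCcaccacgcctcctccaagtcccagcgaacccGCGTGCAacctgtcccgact
MT1X: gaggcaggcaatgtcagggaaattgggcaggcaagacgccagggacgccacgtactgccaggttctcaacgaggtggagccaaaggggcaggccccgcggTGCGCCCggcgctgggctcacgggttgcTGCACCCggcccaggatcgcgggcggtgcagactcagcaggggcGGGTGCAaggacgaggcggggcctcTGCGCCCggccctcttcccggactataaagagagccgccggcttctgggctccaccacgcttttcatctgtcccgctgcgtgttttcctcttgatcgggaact
MT1H: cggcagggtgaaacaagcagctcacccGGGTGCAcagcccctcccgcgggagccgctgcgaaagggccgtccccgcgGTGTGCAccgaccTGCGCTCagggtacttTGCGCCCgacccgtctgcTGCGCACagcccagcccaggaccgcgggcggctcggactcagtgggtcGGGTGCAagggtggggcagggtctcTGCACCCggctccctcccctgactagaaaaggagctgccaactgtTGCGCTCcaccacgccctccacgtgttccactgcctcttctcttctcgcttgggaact
Of 27305 promoters of this length, 29.3% hold at least 1 match, 0.593% at least 4 and 0.022% at least 8. The MTF1 promoter (chr1:37859543-37859842, reverse strand) holds 0. The TATA box TATAAA was found once each in MT2A and MT1X, not in MT1H or MTF1, and in 3264 of all promoters. The number of matches did not order the genes by level, since MT1H, with as many as MT2A, was the lowest of the 8 metallothionein genes by its median over libraries (0.440 FPKM against 270.1 FPKM for MT2A).

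Expression did not follow the labelled cell lines, which bears on every value below. Over 15173 genes that reached 1 FPKM in 2 or more libraries, both HepG2 WT libraries, HepG2 SR replicate 1 and the replicate 2 libraries of Huh7, 5 in all, correlated with one another at a Pearson's r of 0.914 to 0.977. Huh7 WT replicate 1 and Huh7 SR replicate 1 correlated at 0.965 with each other and at 0.731 to 0.783 with those 5, and HepG2 SR replicate 2 was unlike either set. All 11 hepatocyte markers examined were read in every library, but ALB (albumin) stood at 11.98 and 42.3 FPKM in the replicate 1 libraries of Huh7 WT and Huh7 SR against 604 to 4713 FPKM in the other 6. The summed level of the 11 was 738.5 and 1223 FPKM in those 2 libraries and 2745 to 10660 FPKM in the others. Of the 11, 6 were lower in both than in any other library, 1, FGB (fibrinogen), was higher (380 and 327 FPKM against 0.386 to 127.9), and 4, among them APOB and HNF4A, were neither. Of 10 markers of other cells, PTPRC (leukocytes) was at 0.0258 FPKM or lower throughout, and VIM (mesenchymal cells) was at 536 FPKM in HepG2 SR replicate 2 and at 7.02 FPKM or lower elsewhere. In that library COL1A2 was also above all others, at 8.28 FPKM, while COL1A1 (0.211 FPKM) and PDGFRB (0.376 FPKM) were not. KRT19 (epithelial cells) was at 0.179 FPKM there against 255 to 760 FPKM in the other HepG2 libraries. It was also low in the Huh7 replicate 1 libraries, at 1.78 FPKM in WT and 2.37 FPKM in SR. SOX9, on the same list, was at 54.1 FPKM in HepG2 SR replicate 2, within the range of the others. Of the 11 hepatocyte markers, AFP (1100 FPKM), ALB (4713 FPKM) and TTR (273 FPKM) were higher in HepG2 SR replicate 2 than in any other library. Of the rest, 0 were lower than in all others and 8 were neither. The summed level of the 10 markers of other cells was 27.7 and 22.6 FPKM in the replicate 1 libraries of Huh7 WT and SR and 311 to 907 FPKM in the others. Depth, estimated from the steps between low values, was 27.8 to 57.7 M reads per library. HepG2 WT replicate 2, 1 of the 5 libraries alike, had the lowest estimate. It nevertheless listed 38276 identifiers above 0, against 27188 to 29071 in the other libraries. In RNA from whole cultures, fewer cells that express a gene and less RNA per cell cannot be told apart. The part of these differences between libraries in the results below was not tested.

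MT2A, the main metallothionein of human liver, was the most abundant member in 7 of the 8 libraries. It was at 599.7 and 369 FPKM in HepG2 WT, at 309 and 197 FPKM in HepG2 SR, at 5.09 and 595 FPKM in Huh7 WT and at 4.65 and 231 FPKM in Huh7 SR. Both HepG2 SR libraries lay below both HepG2 WT libraries, whereas in Huh7 the groups overlapped because 1 library of each was near 5 FPKM and the other above 230. How many of all genes were separated in this way in HepG2 was not counted. Between the replicates of a group, MT2A differed 117-fold in Huh7 WT and 49.7-fold in Huh7 SR, and 1.62-fold in HepG2 WT.

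MT1E, a zinc and copper binder like its relatives, was at 79.9 and 138 FPKM in HepG2 WT, 119 and 125 FPKM in HepG2 SR, 0 and 132 FPKM in Huh7 WT, and 0 and 64.1 FPKM in Huh7 SR. It was the most even of the 7 MT1 genes in the HepG2 libraries and was listed at 0 in both Huh7 replicate 1 libraries. MT1F was at 13.4 and 48.5 FPKM in HepG2 WT, 59.1 and 112 FPKM in HepG2 SR, 0 and 98.4 FPKM in Huh7 WT, and 0.0673 and 18.8 FPKM in Huh7 SR. It was the only MT1 gene with both HepG2 SR libraries above both HepG2 WT libraries. The share of all genes separated in this way was not counted, so this is not read as a trait of MT1F.

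MT1G, the member linked to sorafenib, was at 5.31 and 127 FPKM in HepG2 WT, 147 and 78.9 FPKM in HepG2 SR, 0 and 366 FPKM in Huh7 WT, and 0.224 and 65.3 FPKM in Huh7 SR. The highest and the lowest of its 8 values were thus both in Huh7 WT. The HepG2 WT replicates differed 24.0-fold, or -4.34 for replicate 1 minus replicate 2 on the log2(FPKM + 1) scale, which ranked 1 of the 15173 genes by absolute difference between those libraries. In Huh7 WT the difference was -8.52 on that scale and ranked 3.

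MT1X was at 12.2 and 40.4 FPKM in HepG2 WT, 36.4 and 55.9 FPKM in HepG2 SR, 4.94 and 92.8 FPKM in Huh7 WT, and 5.48 and 18.0 FPKM in Huh7 SR. With MT2A it was 1 of only 2 metallothionein genes listed at 1 FPKM or more in all 8 libraries. MT1M was at 0.663 and 3.91 FPKM in HepG2 WT, 1.45 and 52.3 FPKM in HepG2 SR, 0 and 121 FPKM in Huh7 WT, and 0 and 0.853 FPKM in Huh7 SR. In MT1M, 2 libraries, HepG2 SR replicate 2 and Huh7 WT replicate 2, were far above the rest.

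MT1A and MT1H reached at most 38.5 and 30.9 FPKM. MT1A was at 0.958 and 4.59 FPKM in HepG2 WT, 3.34 and 38.5 FPKM in HepG2 SR, 0.204 and 7.95 FPKM in Huh7 WT, and 0 and 5.65 FPKM in Huh7 SR. MT1H was listed at 0 and 0.472 FPKM in HepG2 WT, 0.407 and 30.9 FPKM in HepG2 SR, 0 and 10.9 FPKM in Huh7 WT, and 0 and 0.534 FPKM in Huh7 SR. Both were highest in HepG2 SR replicate 2 and next highest in Huh7 WT replicate 2.

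**Figure D1:**
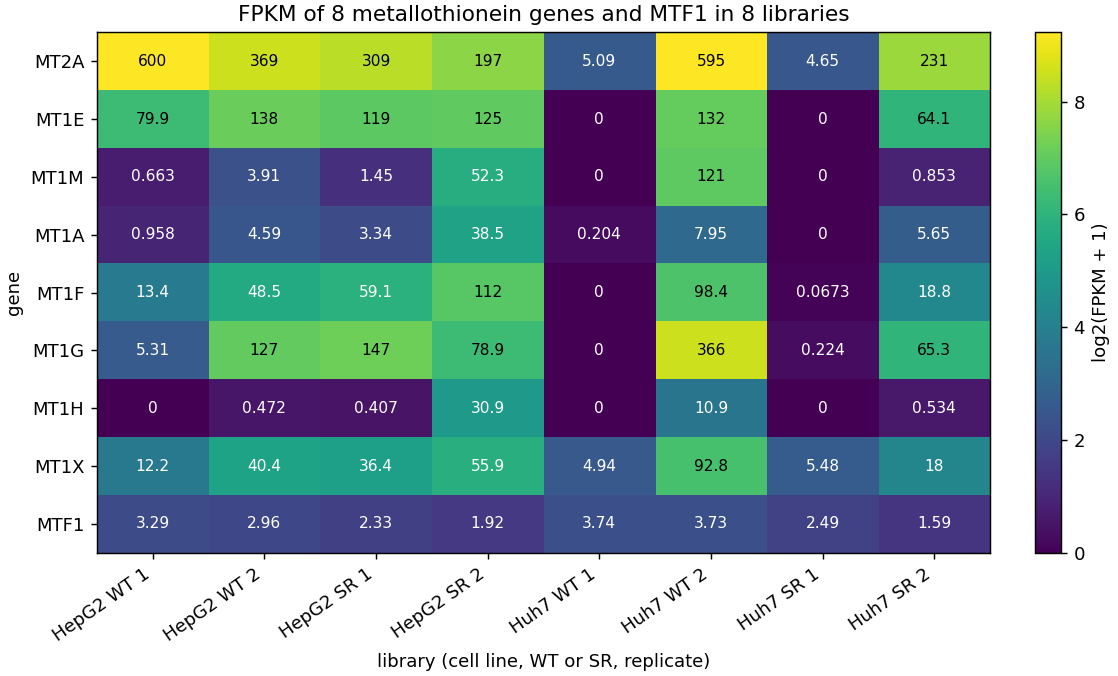
FPKM of each of the 9 genes (rows, metallothionein genes in the order of the cluster, MTF1 last) in each of the 8 libraries (columns); colour gives log2(FPKM + 1) and the printed number the FPKM. The columns of Huh7 WT 1 and Huh7 SR 1 are dark for every metallothionein gene, and the MTF1 row lies between 1.59 and 3.74 FPKM throughout.

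The summed level of the family differed more between the replicates of Huh7 than between WT and SR. Summed over the 8, the level was 712 and 733 FPKM in HepG2 WT, 676 and 691 FPKM in HepG2 SR, 10.2 and 1424 FPKM in Huh7 WT, and 10.4 and 404 FPKM in Huh7 SR. The 4 HepG2 libraries thus spanned only 1.08-fold from the lowest to the highest, while the Huh7 replicates differed 139-fold in WT and 38.8-fold in SR. Between the replicate 2 libraries of Huh7, WT was 3.52-fold above SR.

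Within HepG2, the makeup of the sum varied more than the sum itself. MT2A made up 84.2% and 50.4% of it in HepG2 WT and 45.8% and 28.6% in HepG2 SR. The ratio of the summed 7 MT1 genes to MT2A was 0.187 and 0.984 in HepG2 WT and 1.19 and 2.50 in HepG2 SR, so both SR libraries lay above both WT libraries. In Huh7 the ratio was 1.01 and 1.40 in WT and 1.24 and 0.750 in SR, and the groups overlapped. With 2 libraries against 2, an exact permutation test cannot give a two-sided p below 0.333, and none was run. In both Huh7 replicate 1 libraries MT2A and MT1X together made up nearly all of the remaining level, with MT1X at 48.3% and 52.6%.

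**Figure D2:**
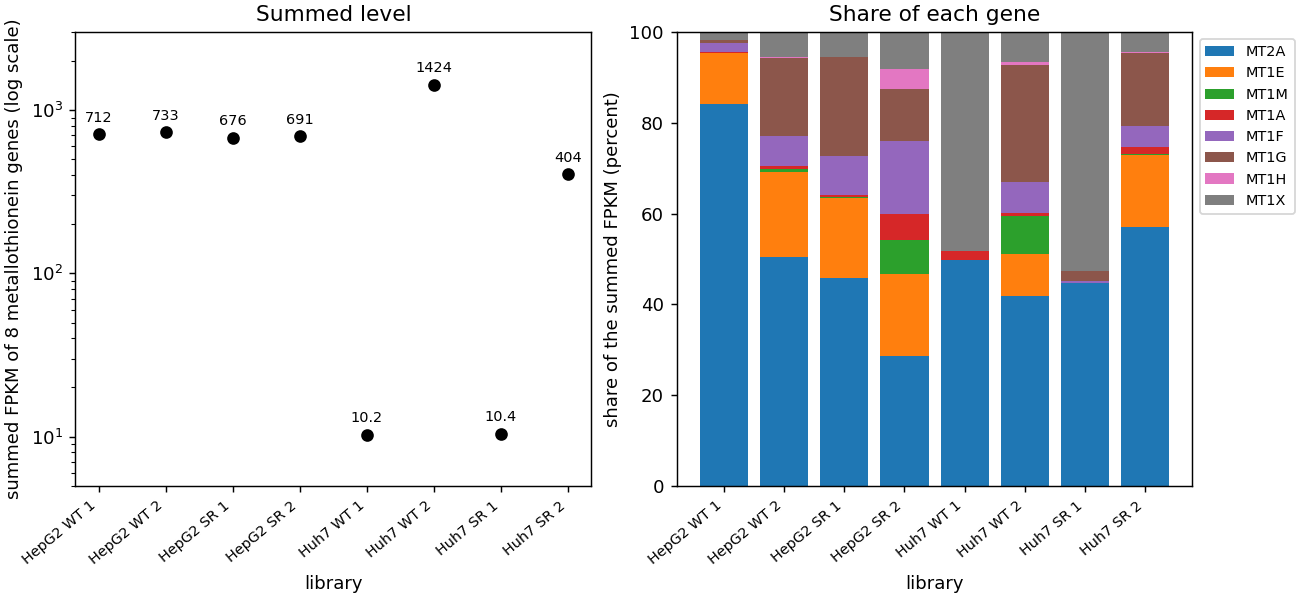
Left, summed FPKM of the 8 metallothionein genes in each library, on a log axis; right, the percent of that sum from each gene. The sum lies between 676 and 733 FPKM in the 4 HepG2 libraries while the MT2A share goes from 84.2% to 28.6%, and it is 10.2 and 10.4 FPKM in the Huh7 replicate 1 libraries.

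Across the 8 libraries, the 28 pairs of metallothionein genes had a Pearson's r of log2(FPKM + 1) between 0.356 (MT1H with MT2A) and 0.974 (MT1E with MT2A), with a median of 0.815. These are descriptions over 8 points that include the 2 low Huh7 libraries, and the libraries fall into separate sets. The r of MTF1 with the 8 genes lay between -0.443 and 0.065. By the same measure the genes most like MT2A were SLC2A11 (0.993), ENSG00000259353, VAMP5, SERPINC1 and ACSL1 (0.986), and those most like MT1G were DUS1L (0.981), ANAPC1P2, PDCD2, ENSG00000293360 and TMEM230 (0.967). Those most like MTF1 were ZNF641 (0.987), RNF216P1, ZFYVE26, KAT6A and CSNK1G1 (0.953).

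The low values in Huh7 replicate 1 were examined along the chromosome. Replicate 1 minus replicate 2 on the log2(FPKM + 1) scale was -8.52 (MT1G) to -2.90 (MT1A) over the 8 genes in Huh7 WT, with a median of -6.62. In Huh7 SR it was -6.03 (MT1E) to -0.62 (MT1H), with a median of -3.47. Differences below -3 were found in 7 of the 8 genes in WT and 4 of 8 in SR, against 1.98% and 2.52% of all 15173 genes. A gene at a low level in replicate 2 cannot fall below -3 on this scale. This held for MT1A, MT1H and MT1M in Huh7 SR, and for part of all genes.

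Within 500 kb of the cluster, 15 of 37 other genes passed the filter. Their difference between the Huh7 replicates was -2.38 to 1.23 in WT (median -0.78) and -2.23 to 2.39 in SR (median -0.26), and 0 of 15 were below -3 in either. Over all genes the median was -0.10 in WT and 0.11 in SR. Several of the 15 were too low in replicate 2 to fall below -3, so that count does not show where the low values end. CETP was at 0.897 and 1.81 FPKM in replicate 2 of WT and SR and at 0 in replicate 1 of both. NLRC5 was at 6.13 and 3.98 FPKM in replicate 2 and at 0.371 and 0.0613 FPKM in replicate 1. SLC12A3, RPS24P17 and CPNE2 were higher in replicate 1 of both groups. An FPKM under 0.3 in both Huh7 replicate 1 libraries with at least 5 in each of the other 6 was found in 34 genes (0.224% of those tested), and MT1E, MT1F and MT1G were 3 of them.

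**Figure D3:**
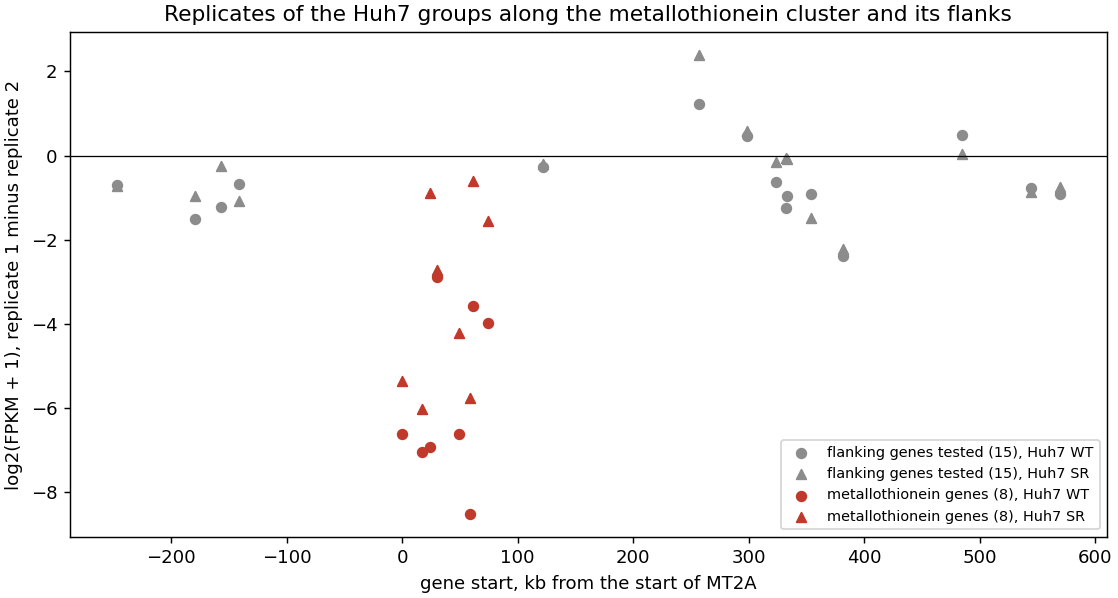
Replicate 1 minus replicate 2 in log2(FPKM + 1) for Huh7 WT (circles) and Huh7 SR (triangles), by the distance of the gene's start from that of MT2A in kb; metallothionein genes in red, flanking genes that passed the filter in grey. The metallothionein genes lie between -8.52 and -0.62, and the flanking genes between -2.38 and 2.39.

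Other metallothionein genes and pseudogenes were nearly silent. MT1B stood at 34.7 FPKM in Huh7 WT replicate 2, the library with the highest summed level, and at 0.320 FPKM or lower elsewhere. MT3, the brain form, reached 0.114 FPKM in HepG2 WT replicate 2, and MT4, the form of squamous epithelium, was listed at 0 in every library. The pseudogenes MT1L, MT1JP, MT1DP, MT1CP, MT1IP, MT1HL1, MT1P1, MT1P3, MT1XP1 and MT2P1 were at 0.538 FPKM or lower in each library.

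Whether the family changed with resistance was asked within each of the lines. limma was fitted to log2(FPKM + 1) of all 15173 genes, and a gene was called where its log2 fold change was 0.5 or more in size and its unadjusted p was under 0.05, the thresholds of the study. All 9 genes passed the filter on low values. In HepG2 SR versus HepG2 WT, 0 of 9 were called, against 2.14% of all genes tested. In Huh7 SR versus Huh7 WT, 0 of 9 were called, against 1.87%. After Benjamini-Hochberg adjustment limma called no gene of the 15173 in either, and 325 and 283 genes passed the unadjusted rule.

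The signs differed between the lines. In HepG2, 7 of 9 log2 fold changes were above 0, with a median of 1.62 against -0.03 over all genes. In Huh7, 9 of 9 were below 0, with a median of -1.09 against -0.05 over all genes. The 8 metallothionein genes moved together over the libraries (median r 0.815), so their signs are not separate observations. How many of all genes lay above or below 0 was not counted. The 95% interval included 0 for each of the 9 genes in both lines, and the change exceeded its SE for 3 genes in HepG2 and 2 in Huh7. MT1H differed by 2.47 (SE 1.60) in HepG2, and MT1M by -3.02 (SE 2.30) in Huh7. MT1G differed by 1.93 (SE 3.04) in HepG2 and by -1.09 (SE 3.04) in Huh7, and MT1F by 1.62 (SE 2.21) and -1.12 (SE 2.21). MT2A differed by -0.93 (SE 2.33) and -0.73 (SE 2.33).

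The change in Huh7 turned with the libraries kept. Without both Huh7 replicate 1 libraries, which left 1 library in each Huh7 group, all 9 genes were below 0. In that fit, chosen after seeing the data, MT1M was at -6.04, MT1G at -2.47 and MT2A at -1.36. Without Huh7 SR replicate 1, MT1A (1.02), MT1E (2.50), MT1F (0.99), MT1G (1.79) and MT2A (1.95) were above 0. The others, MT1H, MT1M, MT1X and MTF1, were below 0 in that fit. Without Huh7 WT replicate 1, the library that listed 5 of the 8 at 0, MT1F (-4.43), MT1M (-6.49) and MT1X (-3.08) were called lower in Huh7 SR, 3 of 9 against 5.39% of all genes in that fit, while without Huh7 WT replicate 2 all 8 metallothionein genes were above 0, with MT1G at 3.17 and MT2A at 2.57. In HepG2, leaving out SR replicate 1 added MT1H to the calls, in a fit that called 11.5% of all genes, and without WT replicate 1 MT1G was at -0.24.

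The difference between the lines in their SR change was tested as an interaction. Of the 9 genes, 0 were called, against 0.606% of all genes, and the median interaction was -2.33 against -0.04 over all genes. MT1M had the largest, -5.02 (SE 3.25), and MT1G stood at -3.02 (SE 4.30). Without Huh7 WT replicate 1, MT1F, MT1H, MT1M and MT1X were called, 4 of 9 against 2.23% of all genes.

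**Figure D4:**
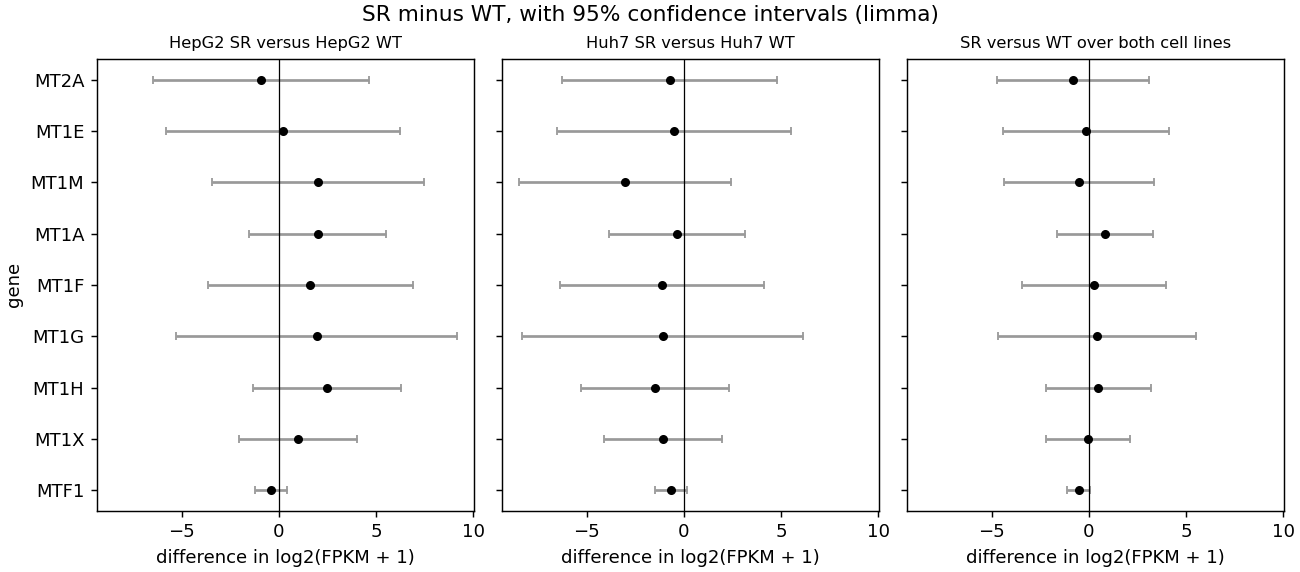
SR minus WT in log2(FPKM + 1) for each gene in HepG2, in Huh7 and over both cell lines, with the 95% confidence interval from limma. Every interval includes 0, and that of MTF1 is far narrower than those of the metallothionein genes. The intervals use 1 spread per gene shared by the 4 groups.

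Over both cell lines, 4 SR against 4 WT libraries, 0 of 9 were called, against 3.93% of all genes. The median was -0.05, the same as over all genes. MT1G differed by 0.42 (SE 2.15, 95% interval -4.69 to 5.53), which leaves large changes in either direction within the error. An exact two-sided permutation test of MT1G over the 8 libraries gave p = 0.914, where the smallest p that 70 arrangements allow is 0.0286.

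MTF1, the metal-sensing regulator, was the only gene of the 9 with all 4 SR libraries below all 4 WT libraries, a pattern found in 2.17% of the genes tested. It was at 3.29 and 2.96 FPKM in HepG2 WT, 2.33 and 1.92 FPKM in HepG2 SR, 3.74 and 3.73 FPKM in Huh7 WT, and 2.49 and 1.59 FPKM in Huh7 SR. Its replicates differed by at most 1.57-fold in any group, also in Huh7, where those of MT2A differed 49.7-fold or more.

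The limma difference of MTF1 was -0.40 (SE 0.35) in HepG2, -0.66 (SE 0.35) in Huh7 and -0.53 (SE 0.25) over both, with an unadjusted limma p of 0.071 and an adjusted p of 0.998 over both. By p it ranked 897 of 15173. It was thus not called in the fit reported. It was called with no filter on low values, with TPM scaling and with the expression profile of the library as a term. The last of these fits held no term for cell line. The unadjusted limma p was 0.0381, 0.049 and 0.0248 and the adjusted p was 0.819, 0.951 and 0.503. Over all genes these fits called 669, 653 and 1245, against 596 in the fit reported. The 1245 were 8.21% of the genes tested, and the fit with no filter tested more genes than the others. Over both lines, the difference of MTF1 was below 0 in every alternative run, from -0.71 to -0.42. The -0.71 came from the pseudocount of 0.1, which is another log2 scale.

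MT2A was also compared with the libraries that stand apart left out or modelled. The fit of the 5 libraries alike and the fit with the expression profile as a term held no term for cell line. They thus compare SR with WT without regard to line. The fits that called MT2A lower all left out or modelled both Huh7 replicate 1 libraries, so they are not independent of one another. Among the 5 libraries alike in expression it stood at 599.7, 369 and 595 FPKM in WT and at 309 and 231 FPKM in SR. The limma difference in those 5 was -0.93 with an unadjusted p of 0.0444 and an adjusted p of 0.843, and 767 genes, 5.06% of those tested, were called in that fit. It was called lower as well with the expression profile as a term, at -0.69 with an unadjusted limma p of 0.0405 and an adjusted p of 0.515 (8.21% of all genes called), and without both Huh7 replicate 1 libraries, at -1.14 with an unadjusted limma p of 0.033 and an adjusted p of 0.834 (5.19% of all genes called). With all 8 libraries it was -0.83 (SE 1.65) and not called, and without Huh7 WT replicate 2 it was 0.82.

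**Figure D5:**
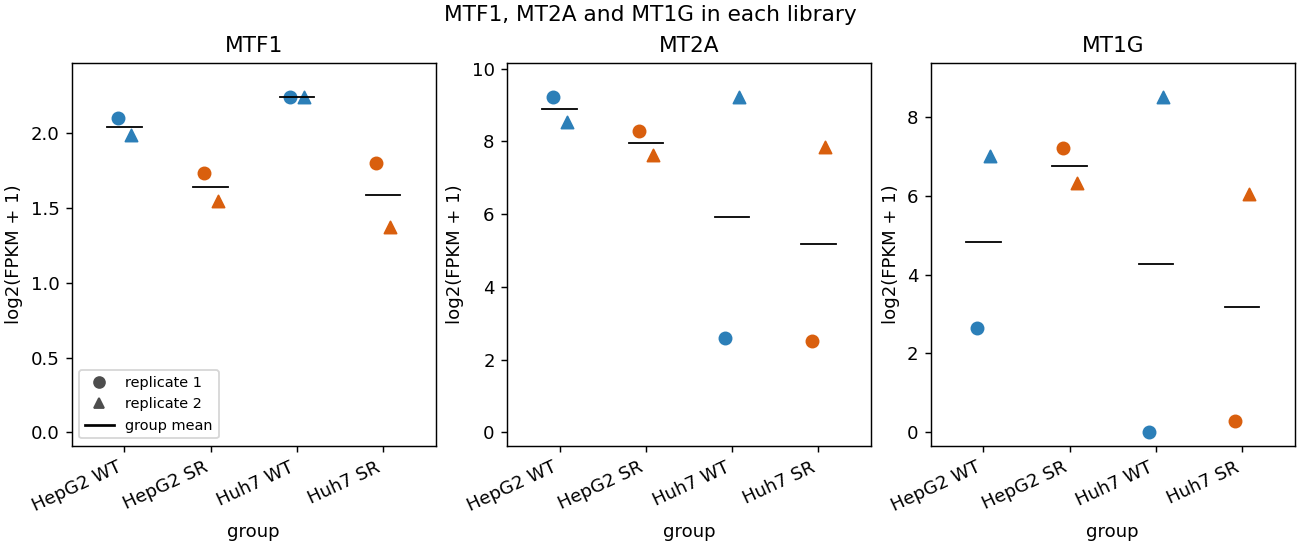
log2(FPKM + 1) of MTF1, MT2A and MT1G in each library (circles, replicate 1; triangles, replicate 2; WT in blue, SR in orange) with group means as lines. The MTF1 points of SR lie below those of WT in both cell lines, and the Huh7 points of MT2A and MT1G are split by replicate.

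Huh7 was compared with HepG2 over WT and SR. Of the 9 genes, 0 were called, against 4.9% of all genes, and 8 of 9 were lower in Huh7, with a median of -1.18 against 0.03 over all genes. MT1E (-3.57, SE 1.79) and MT2A (-2.87, SE 1.65) had the largest differences, and MTF1 was at 0.07 (SE 0.25). Without both Huh7 replicate 1 libraries, MT2A was at 0.12, MT1X at 0.36 and MT1G at 1.49 on the log2 scale. The sign for these genes therefore rested on those libraries. Of the 11 hepatocyte markers, 6 were called lower in Huh7, with a median of -2.01, the largest being ALB (-4.13, SE 1.59), TTR (-3.82, SE 1.21) and AFP (-3.79, SE 1.19). In Huh7 SR against Huh7 WT, 2 of the 11, TF (2.13, SE 0.70) and HNF4A (0.96, SE 0.40), were called higher, with a median of 1.78, and TF was called over both lines (1.37, SE 0.50). The part of these markers in the metallothionein differences was not tested.

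Genes that handle the same metals were counted from lists. Of 12 zinc importers tested, SLC39A14, the hepatocyte zinc and iron importer ZIP14, rose in HepG2 SR, from 88.0 and 98.8 FPKM to 158 and 146 FPKM (0.70, SE 0.29), with an unadjusted limma p of 0.05 after rounding and an adjusted p of 0.956. This was 1 of 12 against 2.14% of all genes, and 0 were called in Huh7 SR against 1.87%. Of 8 zinc exporters, 0 were called in SR versus WT in either line, and SLC30A3 was higher in Huh7 than HepG2 (0.70, SE 0.27). Of 13 copper handling genes, 0 were called for SR, and CCS, the copper chaperone of superoxide dismutase, and SCO2, a mitochondrial copper chaperone, were lower in Huh7 (-0.96, SE 0.31 and -0.88, SE 0.34), where 4.9% of all genes were called.

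Regulators and inducers of the family were counted in the same way. Of all genes, 2.14% were called in HepG2 SR, 1.87% in Huh7 SR and 4.9% for Huh7 versus HepG2. Of 11 other metallothionein regulators tested and 9 genes induced by glucocorticoids, 0 were called for SR in either line, and SGK1, a kinase raised by glucocorticoids, was lower in Huh7 than HepG2 (-2.85, SE 0.82). Of 15 stress genes that metals induce, 0 were called for SR in either line, and GCLM (1.47, SE 0.57), which codes for a subunit of the glutathione synthesis enzyme, and SLC7A11 (1.11, SE 0.46) were higher in Huh7 than HepG2. The cystine transporter gene SLC7A11 (-2.36, SE 0.92) and TXNRD1 (-1.54, SE 0.60), which codes for thioredoxin reductase, were called in the interaction, in which 0.606% of all genes were called. No gene passed an adjusted p of 0.05 in any of the 5 comparisons, and the lowest adjusted p was 0.813.

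SLC7A11 was at 2.59 and 1.44 FPKM in HepG2 WT, 5.31 and 7.09 FPKM in HepG2 SR, 6.58 and 26.5 FPKM in Huh7 WT, and 7.91 and 4.19 FPKM in Huh7 SR. Its Huh7 groups overlapped. Of the 15 flanking genes tested, HERPUD1, an endoplasmic reticulum stress gene, was called lower over both lines (-0.997, SE 0.38) and in Huh7 SR (-1.35, SE 0.53). Its SR and WT libraries overlapped in HepG2. Of all genes, 3.93% were called over both lines and 1.87% in Huh7 SR. SLC12A3, which codes for a sodium and chloride cotransporter of the kidney (2.16, SE 0.82), and the pseudogene RPS24P17 (1.47, SE 0.41) were called higher in Huh7 SR. SLC12A3 was at 1.46 and 0.0481 FPKM in Huh7 WT and at 15.4 and 2.14 FPKM in Huh7 SR. RPS24P17 was low throughout, at 0.377 and 0 FPKM in Huh7 WT, 2.98 and 1.64 FPKM in Huh7 SR and at most 0.422 FPKM in HepG2. Both were also higher in Huh7 than HepG2 (1.39, SE 0.58 and 0.72, SE 0.29), where 4.9% of all genes were called. RPS24P17 was called in the interaction (1.60, SE 0.58), against 0.606% of all genes.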

How the data were processed

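The authors extracted total RNA, selected polyadenylated RNA on oligo(dT) beads, made libraries with an NEBNext Ultra RNA kit and deposited FPKM per gene and library, without pooling replicates. Per the labels, fastp 0.20.0 and GRCh38 were used; the aligner, the counting tool, its strand setting and the annotation are not given in the sources used here. FPKM are not counts, so the edgeR test that the study names was replaced.

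Genes were named from a table of Ensembl identifiers (99.1% of 63241 matched), positions came from GENCODE release 29, in which 58228 identifiers were found, and promoters from RefSeq. limma 3.58.1 (R 4.3.3; lmFit, eBayes with trend) was applied to log2(FPKM + 1), in 1 model of 4 group means with 4 residual degrees of freedom, for the 15173 genes that reached 1 FPKM in 2 or more libraries. The scale understates changes of weakly expressed genes. limma was tested on simulated data with 1 spread for every gene, independent noise and no sets of libraries. Such data are unlike these libraries, so that test does not give the error rate here. Benjamini-Hochberg adjustment covered all genes tested. Depths are estimates from steps between low values, so no counting intervals were given.

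Alternatives were a pseudocount of 0.1, a filter at 0.1 or none, TPM scaling, quantile normalization, separate fits, a replicate block, eBayes without trend, an adjusted p, leaving out each library, and the 5 libraries alike. The 5 libraries alike were set apart by their expression in these same data. The expression profile as a term and leaving out both Huh7 replicate 1 libraries were chosen after seeing the data. Neither the fit of the 5 libraries alike nor the fit with the profile term held a term for cell line. The members and gene lists were chosen with earlier results of these data known. All 9 members were described; other genes were named as at most the 3 called with the largest absolute change for each list and comparison, for library checks, or as the 5 with the highest r with MT1G, MT2A or MTF1. Other steps used pandas 2.3.3, NumPy 2.4.6 and, for plots, matplotlib 3.10.9 under Python 3.11.15.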

Additional observations from a re-analysis of the deposited data

How the results depend on the processing

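With each library left out in turn, the number of members called was 0 to 1 in HepG2, 0 to 3 in Huh7, 0 over both lines, 0 to 5 for Huh7 versus HepG2 and 0 to 4 for the interaction. The calls without Huh7 WT replicate 2 were MT1E, MT1F, MT1G, MT1X and MT2A for Huh7 versus HepG2, and without Huh7 SR replicate 2 they were 2, MT1E and MT2A. Without HepG2 SR replicate 1, MT1H was called in HepG2 and for the interaction. Differences that changed sign with a library left out ranged widely. In HepG2, MT1E went from -0.18 to 0.61, MT1G from -0.24 to 4.11 and MT1M from -0.22 to 4.22. In Huh7, MT1A went from -1.79 to 1.1, MT1E from -4.05 to 3.01, MT1F from -4.43 to 2.20, MT1G from -5.35 to 3.17, MT1H from -3.26 to 0.31, MT1M from -6.49 to 0.44, MT1X from -3.08 to 0.90 and MT2A from -4.04 to 2.57. Over both lines, MT1E went from -1.92 to 1.61, MT1F from -1.41 to 1.91, MT1G from -1.71 to 2.55, MT1H from -0.63 to 1.62, MT1M from -2.24 to 1.22, MT1X from -1.05 to 0.94 and MT2A from -2.48 to 0.82. For Huh7 versus HepG2, MT1G went from -4.21 to 0.049, MT1H from -1.59 to 0.66, MT1M from -2.29 to 1.17 and MTF1 from -0.033 to 0.18. For the interaction, MT1E went from -4.26 to 2.80, MT1F from -6.06 to 0.58, MT1G from -7.28 to 1.24 and MT2A from -3.11 to 3.50. The difference of MT1G over 4 SR and 4 WT libraries ranged from -1.09 to 1.98. A group reduced to 1 library was assumed to vary like the others.

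With the replicate block, 1 member was called in HepG2 (MT1A), 3 for Huh7 versus HepG2 (MT1A, MT1E and MT1F) and 2 for the interaction (MT1A and MT1H), and it changed no other call. Over all 15173 genes the block called 328 in HepG2 and 780 for Huh7 versus HepG2. Its count over all genes for the interaction is not given here. The labels do not say that a replicate number marks a shared batch, and the deviations of same-numbered libraries correlated at 0.12 in HepG2 and 0.80 in Huh7, so the numbers were not taken as pairs. Over both lines, 1 member was called with no filter and 1 with TPM scaling (MTF1), 1 in the 5 libraries alike (MT2A), 2 with the expression profile as a term (MT2A and MTF1) and 1 without both Huh7 replicate 1 libraries (MT2A). Leaving out those 2 libraries called 3 for the interaction (MT1F, MT1M and MT1X). Over both lines MT1F was -0.26 and MT1H -0.82 in the 5 libraries alike, MT1F -0.16 and MT1H -0.58 with the profile term, and MT1F -0.35, MT1G -0.27 and MT1H -0.25 without both Huh7 replicate 1 libraries. Without the latter, Huh7 versus HepG2 was 0.23 for MT1A, 1.49 for MT1G, 0.58 for MT1H, 1.40 for MT1M, 0.36 for MT1X, 0.12 for MT2A and -0.034 for MTF1, and the interaction of MT2A was -0.43. The cause of these changes was not tested. Under the other alternatives run the members called did not change and no sign turned. Over all genes, the filter at an FPKM of 0.1 called 504 in HepG2 and 254 for the interaction, against 325 and 92 as reported, no filter called 168 for the interaction, and a separate fit called 124 in Huh7 against 283. The profile term called 1245 over both lines against 596, and leaving out both Huh7 replicate 1 libraries called 668 in Huh7 and 479 for the interaction. With each library left out, the count was 57 to 1749 in HepG2, 154 to 818 in Huh7, 193 to 1277 over both lines, 236 to 1735 for Huh7 versus HepG2, against 744, and 24 to 945 for the interaction. With 2 libraries a group, a difference of the size seen between replicates of the metallothionein genes could not be told from the spread.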
